A study of Mus musculus with 70 samples.

Results

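The common gamma chain cytokine receptors were followed here through progenitors of innate lymphoid cells (ILCs) sorted from the bone marrow of mice. The set was defined by gene identity: the rows of both count tables whose Entrez identifier maps to Il2rg, Il7r, Il2ra, Il2rb, Il15ra, Il4ra, Il21r or Il9r. All 8 genes were found among 27179 genes. These genes encode the shared chain and the chains that pair with it. IL-7 is read by IL-7Rα and the gamma chain, IL-2 and IL-15 by IL-2Rβ and the gamma chain with a private alpha chain each, and IL-4, IL-9 and IL-21 each by a private chain and the gamma chain. JAK1 and JAK3 sit on these chains and phosphorylate STAT proteins, mainly STAT5 for IL-2, IL-7, IL-9 and IL-15, STAT6 for IL-4 and STAT3 for IL-21. Mice without the gamma chain lack ILCs, and IL-7 is a main survival signal for lymphoid progenitors in the marrow.

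Each sample held 100 cells sorted from bone marrow into lysis buffer, and polyadenylated RNA was read as 3′ tags by CEL-seq. The mutant mice were TCF7-/- (5 libraries of CLP, 4 of CILP and 2 of ILC2P) and Id2-/- (2 of CLP, 2 of CILP and 1 of ILCP). The wild-type (WT) libraries were 8 of CLP (common lymphoid progenitors), 5 of a4b7 CLP (the CLP with integrin α4β7 on their surface), 7 of CILP (common progenitors of the innate lymphoid lineages), 3 of ILCP and 8 of ILC2P (progenitors of group 2 ILCs). TCF-1, encoded by Tcf7, and ID2 are regulators that act early in ILC development. The labels give neither the sex, age or strain of the mice nor how the alleles were made, and they name no gate for ILCP. The sorting antibodies are also not named, so it is not known whether the gates used the proteins encoded by Il7r or Il2ra. The labels do not tie replicates to different animals, and the p-values measure only the spread between these samples, which may be technical.

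The 47 modelled libraries held between 19322 and 624668 counts (median 134985), 22 in batch 1 and 25 in batch 2. Levels are given as CPM, a gene's counts scaled to the library's TMM-adjusted total and so comparable between depths. The summed CLP marker list was 12743 ± 3134 CPM in CLP (SD, n = 8) and the ILC2P list was 6396 ± 2278 CPM in ILC2P (SD, n = 8). The ILC2P list stood at 6796 ± 1412 CPM in ILCP (SD, n = 3), so these libraries were like ILC2P in those genes. The CILP list was 4399 ± 909 CPM in CILP (SD, n = 7), with 3760 CPM in ILCP and 3653 CPM in ILC2P on average. The 2 integrin genes of α4β7 did not single out a4b7 CLP: their sum was 348 to 1320 CPM there, against 235 to 612 CPM in CLP, with means of 1215 CPM in CILP, 1758 CPM in ILCP and 1120 CPM in ILC2P. The lowest a4b7 CLP library, replicate 3, lay inside the CLP range. Tcf7 was between 0 and 62.6 CPM in the 4 TCF7-/- CILP libraries, against 165 to 777 CPM in WT CILP. In the other 7 TCF7-/- libraries it does not tell the genotypes apart: it was 0 and 52.7 CPM in TCF7-/- ILC2P, against 0 to 61.3 CPM in WT ILC2P, and 0 to 26.4 CPM in TCF7-/- CLP, against 0 to 8.07 CPM in WT CLP. Id2 was at 0 in both Id2-/- CLP libraries and also in 6 of the 8 WT CLP libraries. It was at 115 and 26.8 CPM in Id2-/- CILP and at 129 CPM in Id2-/- ILCP, all of them batch 1 libraries. In batch 1 WT libraries Id2 was 1422, 1070 and 2265 CPM in CILP and 1213 CPM in ILCP, above these values. In batch 2 WT libraries it was lower, 79.4 to 666 CPM in CILP and 78.0 and 12.1 CPM in ILCP. The deleted part of either gene is not stated, so a 3′ tag may not test the deletion. Several libraries stood apart. WT a4b7 CLP replicate 4 held 8042 CPM of myeloid markers, against 24.3 to 261 CPM in the other a4b7 CLP libraries, and no receptor call was lost without it. WT ILC2P replicate 1, the shallowest library, held 1977 CPM of the ILC2P list, against 5898 to 10249 CPM in the other WT ILC2P libraries, with 2762 CPM of myeloid, 614 CPM of erythroid and 750 CPM of CLP markers. No receptor call was lost without it either. The Id2-/- ILCP library, TCF7-/- ILC2P replicate 1 and 1 of the 3 WT ILCP libraries held summed erythroid markers of 15973, 16096 and 15349 CPM. TCF7-/- CILP replicates 1 and 4 held 10840 and 28850 CPM of the same list. Of 12 control wells, which held spike-in RNA and no cells, 6 held 1 or more counts of a receptor gene.

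Promoters are shown for the 3 chains that were called in ILCP against CLP and against a4b7 CLP (Il7r, Il2rg and Il2ra) and for the one with counts mainly in ILC2P (Il9r). Windows run from 250 bases before to 50 bases after the transcription start in the RefSeq table for GRCm38.p6, which held 7 of the 8 genes. Each line gives the 5′ to 3′ sequence of the gene's own strand, and capitals mark every match to a STAT motif (TTCNNNGAA), a GATA motif (NGATAA) or a TCF and LEF motif (CTTTGAN) on either strand. The windows lie at chr15:9529827-9530126 (minus strand, Il7r), chrX:101268206-101268505 (minus strand, Il2rg), chr2:11642542-11642841 (plus strand, Il2ra) and chr11:32200230-32200529 (minus strand, Il9r). The Il9r window lies wholly inside the annotated gene (chr11:32187544-32205283), away from its outermost start at 32205283. Its letters therefore describe an internal start.
Il7r: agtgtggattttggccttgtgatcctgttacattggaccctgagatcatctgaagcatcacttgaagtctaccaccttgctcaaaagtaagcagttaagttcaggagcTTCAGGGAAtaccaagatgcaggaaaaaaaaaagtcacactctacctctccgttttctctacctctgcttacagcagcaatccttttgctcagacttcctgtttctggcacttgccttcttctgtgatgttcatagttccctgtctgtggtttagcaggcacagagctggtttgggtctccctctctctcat
Il2rg: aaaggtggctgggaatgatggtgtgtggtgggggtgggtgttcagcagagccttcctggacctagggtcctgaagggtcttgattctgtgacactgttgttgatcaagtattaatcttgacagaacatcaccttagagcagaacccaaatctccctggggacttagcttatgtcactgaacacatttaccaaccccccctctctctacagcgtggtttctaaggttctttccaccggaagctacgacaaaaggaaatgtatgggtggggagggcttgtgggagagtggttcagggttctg
Il2ra: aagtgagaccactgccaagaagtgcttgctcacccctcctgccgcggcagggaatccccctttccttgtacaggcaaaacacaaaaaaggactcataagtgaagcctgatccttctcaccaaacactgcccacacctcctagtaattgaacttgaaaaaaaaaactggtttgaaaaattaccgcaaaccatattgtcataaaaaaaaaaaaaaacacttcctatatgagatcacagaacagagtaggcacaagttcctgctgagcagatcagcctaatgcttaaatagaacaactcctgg
Il9r: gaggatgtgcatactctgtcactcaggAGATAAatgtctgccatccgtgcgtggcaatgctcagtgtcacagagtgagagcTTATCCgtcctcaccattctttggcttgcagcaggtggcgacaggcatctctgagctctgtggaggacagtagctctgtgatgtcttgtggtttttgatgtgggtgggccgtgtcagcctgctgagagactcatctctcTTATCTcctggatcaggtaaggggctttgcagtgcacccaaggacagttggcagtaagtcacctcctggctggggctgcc
The Il7r window held 1 STAT match, TTCAGGGAA, at position -142 from the start; 8.3% of 32851 promoters of the same length hold this motif. The Il9r window, at the internal start, was the one with GATA matches, 3 of them, at -223, -169 and -30. Of all promoters, 25.3% hold at least 1 and 0.925% hold 3 or more. The Il2rg and Il2ra windows held no match to the 3 motifs, which says only that these letters are not in these windows. A TCF and LEF match, found in 16% of promoters, was present among the members only in the second of the 2 Il15ra windows. The motifs overlapped nowhere in the 4 windows shown. In the GENCODE annotation of the same assembly, Il2rg and Il2ra each overlap 1 other gene on their own strand (Gm20489 and Gm37881) and Il4ra overlaps an antisense gene (Gm44876). A strand setting would not separate reads of Il2rg and Il2ra from those of a neighbour on the same strand, so their counts could include such reads. The strand setting of the counting is not given, so Il4ra counts could include reads of the antisense gene.

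Between WT populations, Il2ra and Il2rg were called most often, and Il7r, Il21r, Il9r and Il2rb were called in fewer comparisons. Most calls lay between the CLP stages and ILCP or ILC2P. Il2rg, Il2ra and Il2rb were also called in comparisons with CILP. Genes were called at an adjusted p under 0.05 in edgeR's quasi-likelihood test with Benjamini-Hochberg adjustment over 10972 genes, of which 7 were members. Il15ra did not enter, because no library held enough of its counts for its depth. In ILC2P against a4b7 CLP, 4 members rose and 1 fell (5 of 7), with 9.07% of all genes called. In ILC2P against CLP, 3 rose and 1 fell (4 of 7), with 11.5% of all genes called. In ILCP, 3 of 7 rose against CLP (2.61% of all genes called) and 3 of 7 rose against a4b7 CLP (1.51%). In CILP, 1 of 7 rose against CLP (4.31%) and 1 of 7 against a4b7 CLP (2.35%), Il2rg in both. In ILC2P against CILP, 1 rose and 1 fell (5.29%), and in ILCP against CILP 1 rose (0.374%). None was called in ILC2P against ILCP (0.538%; 59 genes called, 1364 at an unadjusted p under 0.05) or in a4b7 CLP against CLP (0.0456%; 5 genes called, 830 at an unadjusted p under 0.05). DESeq2 and limma-voom also called 0 members in both of these. Comparisons that share a population share its libraries and are not independent. In bulk samples of this kind, fewer cells of a type and less RNA per cell cannot be told apart.

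**Figure D1:**
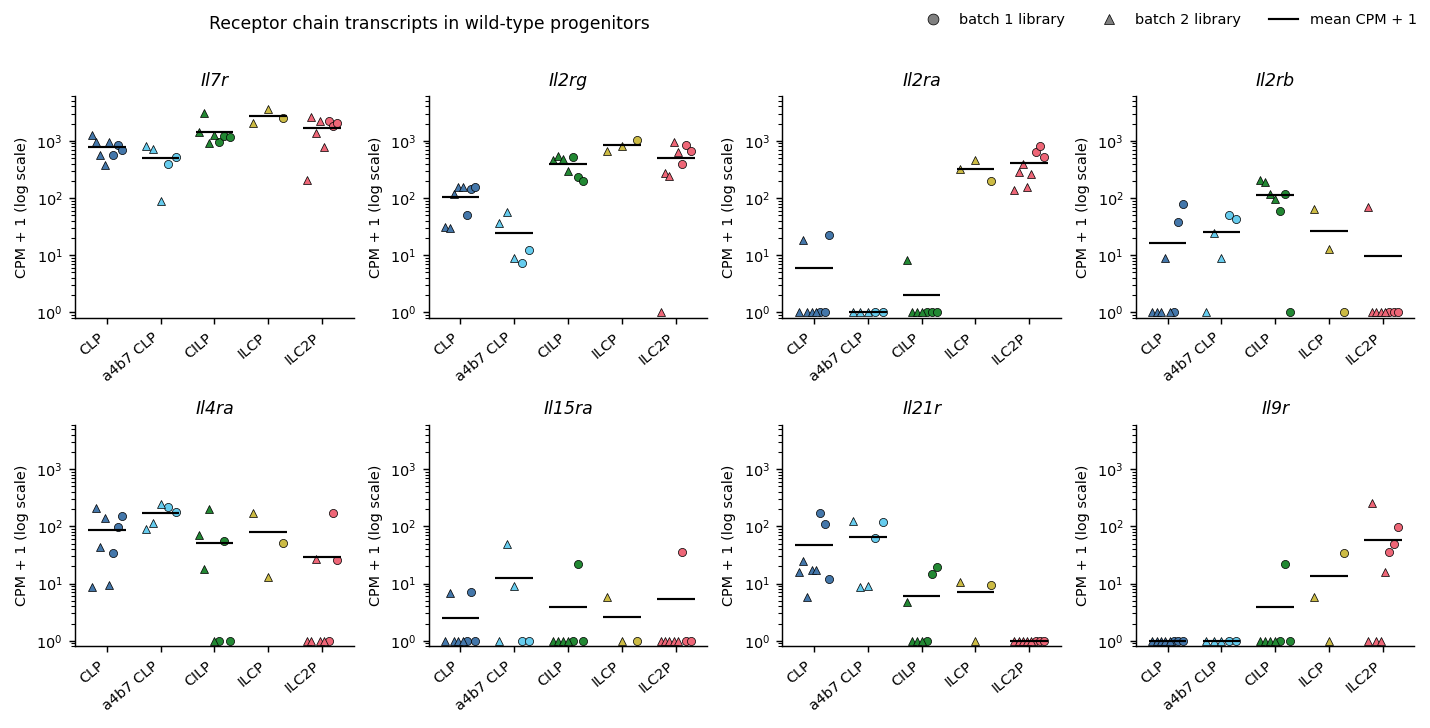
Each panel plots one receptor gene in the 31 wild-type libraries, with CPM + 1 on a log axis against population; circles are batch 1 libraries, triangles batch 2 libraries, and the line is the mean CPM plus 1. Il2ra sits at or near 0 in CLP, a4b7 CLP and CILP and between 136 and 821 CPM in ILC2P, while Il2rb has its highest mean in CILP.

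Il2rg, the shared chain without which none of these receptors signals fully, was lowest in a4b7 CLP and highest in ILCP. It ranged from 29.4 to 157 CPM in the 8 CLP libraries (median 128). It was 35.6, 56.7, 8.10, 6.15 and 11.5 CPM in the 5 a4b7 CLP libraries and 199 to 542 CPM in the 7 CILP libraries (median 463). CILP lay above every CLP and every a4b7 CLP library. It was 668, 808 and 1030 CPM in ILCP and 0 to 966 CPM in the 8 ILC2P libraries (median 522), where the library at 0 was replicate 1, with 19322 counts and the low ILC2P marker sum given above. The lowest a4b7 CLP value, 6.15 CPM, was that of replicate 4, the library with high myeloid markers. Il2rg rose in CILP against CLP (log2 fold change 1.92, SE 0.57, adjusted p = 0.0329), in ILCP against CLP (3.01, SE 0.67, adjusted p = 0.00239) and in ILC2P against CLP (2.30, SE 0.56, adjusted p = 0.0034). The CILP call against CLP was the least firm of these: adjusted p was between 0.0519 and 0.0711 without CLP replicate 1, 2 or 6 or CILP replicate 2, 3 or 5, and the log2 fold change was 1.48 within batch 1 (adjusted p = 0.299) and 2.18 within batch 2 (adjusted p = 0.21). In batch 2 alone, ILCP against CLP (2.92, adjusted p = 0.138) and ILC2P against CLP (2.17, adjusted p = 0.09) were not called either. Against a4b7 CLP, Il2rg rose in CILP (3.95, SE 0.75, adjusted p = 0.000317), ILCP (5.04, SE 0.84, adjusted p = 2.42e-05) and ILC2P (4.33, SE 0.76, adjusted p = 2.07e-05). Those against a4b7 CLP were 5.02, 6.67 and 5.99 within batch 1, where the ILCP value rests on 1 ILCP library. The CILP and ILC2P values were called there. Within batch 2 the values were 3.64, 4.39 and 3.64, and only the ILC2P value was called (adjusted p = 0.0383). The levels in ILCP, ILC2P and CILP were not distinguished from each other, and CLP (104 ± 57.2 CPM, SD, n = 8) was not distinguished from a4b7 CLP (adjusted p = 0.322).

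Il7r, the alpha chain of the IL-7 receptor and also a chain of the TSLP receptor, was detected in all 31 WT libraries. It ranged from 371 to 1242 CPM in CLP (median 772), was 812, 722, 89.1, 387 and 522 CPM in a4b7 CLP and ranged from 909 to 3122 CPM in CILP (median 1209). It was 2048, 3557 and 2534 CPM in ILCP and ranged from 205 to 2580 CPM in ILC2P (median 1937). ILCP lay above all CLP and a4b7 CLP libraries, while ILC2P overlapped every other population. Il7r rose in ILCP against CLP (log2 fold change 1.80, SE 0.52, adjusted p = 0.0399) and against a4b7 CLP (2.41, SE 0.59, adjusted p = 0.0163), and in ILC2P against a4b7 CLP (1.73, SE 0.51, adjusted p = 0.0192). None of these 3 was past the threshold in batch 2 alone, where the values were 1.79, 2.39 and 1.46. In batch 1 alone the values were 1.80, 2.47 and 2.17. Batch 1 holds 1 ILCP library, so both ILCP values there rest on it. The ILC2P value was past the threshold in batch 1 alone. The ILCP call against CLP was lost without any 1 of the 3 ILCP libraries (adjusted p between 0.0507 and 0.221) and without CLP replicate 3, 4, 5, 6 or 8 (0.0512 to 0.0708). Without a4b7 CLP replicate 3, the lowest library at 11 counts, both calls against a4b7 CLP were lost (adjusted p = 0.0503 in ILCP and 0.0616 in ILC2P), and without ILCP replicate 2 the ILCP one was too (0.091). The a4b7 CLP replicate 3 library is also the one whose integrin sum lay inside the CLP range. The ILCP call against CLP was also lost with no batch term (adjusted p = 0.0678). Other comparisons of Il7r missed the threshold here and passed it in other settings. ILC2P against CLP (1.13, SE 0.42, adjusted p = 0.0656) was past it in DESeq2 (adjusted p = 0.00845), limma-voom (0.0197), batch 1 alone (0.0095), without ILC2P replicate 1 (0.0285) and in 4 further settings. CILP against a4b7 CLP, where every CILP library was higher, was past it in DESeq2 (1.55, adjusted p = 0.0281), limma-voom (1.61, adjusted p = 0.00755), with DESeq2 size factors in edgeR (0.0489) and in a fit of these 2 groups alone (0.0155). In the edgeR fit, no neighbours in the order ILCP, ILC2P, CILP, CLP, a4b7 CLP differed past the threshold.

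Il2ra, the alpha chain (CD25) that gives the IL-2 receptor its high affinity, separated ILCP and ILC2P from the other populations. It had 5 counts over the 8 CLP libraries, 0 over the 5 a4b7 CLP libraries and 2 over the 7 CILP libraries. It was 322, 458 and 199 CPM in ILCP and ranged from 136 to 821 CPM in ILC2P (median 340). Every ILCP and ILC2P library lay above every CLP, a4b7 CLP and CILP library. Il2ra rose in ILC2P against CILP (log2 fold change 7.33, SE 1.05, adjusted p = 2.98e-07) and in ILCP against CILP (7.17, SE 1.11, adjusted p = 1.09e-05). The ratio of summed counts over scaled totals was 299 in ILC2P over CILP (95% exact binomial interval 81.8 to 2483, counting error only). Against CLP it rose in ILCP (5.99, SE 0.99, adjusted p = 1.61e-05) and in ILC2P (6.15, SE 0.92, adjusted p = 3.7e-07). Against a4b7 CLP, where it had no count, Il2ra was 115-fold higher in ILCP and 162-fold higher in ILC2P with 3 counts put in the a4b7 CLP group. The 95% exact binomial intervals of these ratios reached down to 92.4 and 130. Both comparisons were called in edgeR (adjusted p = 6.9e-06 and 4.32e-07). All 6 calls held without any 1 library and within both batches, except ILCP against CLP in batch 1 alone, with 1 ILCP library (4.85, adjusted p = 0.0559). ILCP and ILC2P were not distinguished in Il2ra (ILC2P against ILCP, ratio of summed counts 1.40, adjusted p = 1).

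Il2rb, the beta chain that the IL-2 and IL-15 receptors share, was highest in CILP. Of the CLP libraries, 3 of 8 had counts, with a highest level of 76.1 CPM. It was 0, 23.2, 8.10, 49.2 and 42.3 CPM in a4b7 CLP and ranged from 0 to 202 CPM in CILP (median 117), with counts in 6 of 7 libraries. It was 63.4, 12.1 and 0 CPM in ILCP, and 1 of 8 ILC2P libraries had counts, 2 of them (68.2 CPM in the library of 19322 counts). ILC2P therefore overlapped CILP through 1 shallow library and 1 CILP library at 0. Il2rb fell in ILC2P against CILP (log2 fold change -4.43, SE 1.23, adjusted p = 0.0206), with 2 counts against 205 and a ratio of summed counts of 0.0248 (95% exact binomial interval 0.00299 to 0.0908). With DESeq2 size factors in edgeR it was -3.96 (adjusted p = 0.0631), and within batches -6.13 (batch 1, adjusted p = 0.103) and -3.85 (batch 2, adjusted p = 0.163). Summed markers of NK cells and group 1 ILCs, which use IL-15 through this chain, were 0 to 188 CPM in ILC2P and 106 to 489 CPM in CILP; in ILC2P 6 of the 8 listed genes were at 0, Ncr1, Eomes and Tbx21 among them, and in CILP only Prf1 was. In CILP replicates 1 to 7 this list was 348.8, 145.5, 266.5, 482.8, 105.8, 345.3 and 489.2 CPM. Il2rb was 201.9, 187.1, 117.6, 95.2, 58.8, 117.4 and 0 CPM in the same order. The ILC2P library at 188 CPM of the list, replicate 6, had no Il2rb count. The part of these markers in the Il2rb difference was not tested. Il2rb in CILP against CLP was not called (log2 fold change 3.02, SE 1.05, adjusted p = 0.0822). It was past the threshold in limma-voom (3.32, adjusted p = 0.00174), in a fit of these 2 groups alone (3.35, adjusted p = 0.0409), in batch 2 alone (6.09, adjusted p = 0.0277), without CILP replicate 7 and without CLP replicate 8. Within batch 1 it was 0.72 (adjusted p = 0.925). The batch 1 means were 58.7 CPM in CILP and 37.6 CPM in CLP, and those of batch 2 were 150 CPM in CILP and 1.61 CPM in CLP.

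**Figure D2:**
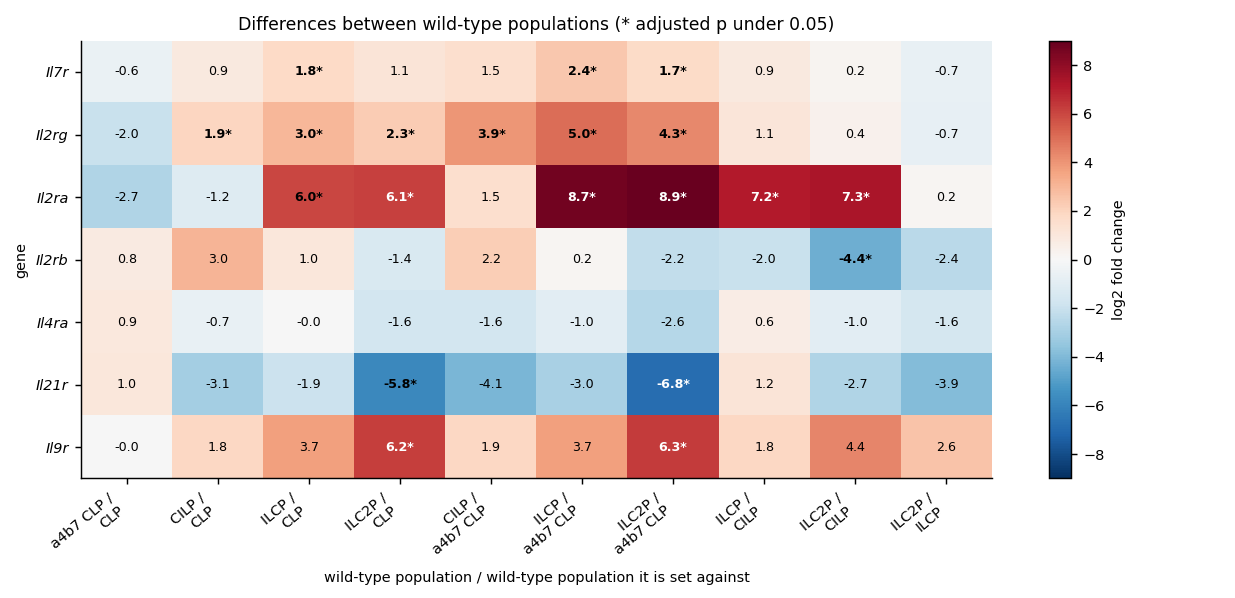
Colours and numbers give the log2 fold change of each of the 7 tested receptor genes (rows) in each of the 10 comparisons of wild-type populations (columns, the population named first over the second); an asterisk marks an adjusted p under 0.05. Il2ra is high in the 6 comparisons of ILCP or ILC2P with CLP, a4b7 CLP or CILP, and Il2rb is called in 1; fitted values of genes at 0 in a group depend on the prior count.

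Il15ra, which presents IL-15 to cells carrying the beta and gamma chains, was near the detection limit. Counts were present in 2 of 8 CLP, 2 of 5 a4b7 CLP, 1 of 7 CILP, 1 of 3 ILCP and 1 of 8 ILC2P libraries, and 19 of the 20 counts in a4b7 CLP lay in 1 library. Exact 2-sided permutation tests of log2(CPM + 1) in 15 comparisons gave p from 0.312 to 1, each 1 after adjustment over the 15. At this depth no difference was detectable.

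Il4ra, the chain that binds IL-4 and, with another partner, IL-13, had its highest mean in a4b7 CLP. It ranged from 7.57 to 206 CPM in CLP (median 70.3) and was 88.9, 113, 243, 215 and 181 CPM in a4b7 CLP. It ranged from 0 to 204 CPM in CILP (median 17), was 171, 12.1 and 49.9 CPM in ILCP, and ranged from 0 to 172 CPM in ILC2P (median 0). All populations overlapped and no comparison was called. ILC2P against a4b7 CLP (log2 fold change -2.58, SE 1.04, adjusted p = 0.0992) was past the threshold in limma-voom (-2.97, adjusted p = 0.0015) and without ILC2P replicate 7 (-4.47, adjusted p = 0.011), the library with 14 of the 17 ILC2P counts. CILP against a4b7 CLP (-1.63, adjusted p = 0.513 in edgeR) was past it in limma-voom (-2.8, adjusted p = 0.0125).

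Il21r, the private chain of the IL-21 receptor, was present in the CLP stages and had no count in ILC2P. It ranged from 4.81 to 168 CPM in CLP (median 16.3) and was 125, 7.73, 8.10, 61.5 and 119 CPM in a4b7 CLP. It ranged from 0 to 18.1 CPM in CILP (median 0), was 9.75, 0 and 8.31 CPM in ILCP and was 0 in all 8 ILC2P libraries. ILC2P lay below every CLP and every a4b7 CLP library. With 3 counts put in the ILC2P group, Il21r was 7.89-fold lower there than in CLP and 10.7-fold lower than in a4b7 CLP. The 95% exact binomial intervals of the ratios, ILC2P over each of these, reached up to 0.1617 and 0.1185. Both comparisons were called in edgeR (adjusted p = 0.0115 and 0.00364). The gene moved with batch: its mean in CLP was 96.0 CPM in batch 1 and 15.2 CPM in batch 2, and in a4b7 CLP 90.3 and 46.8 CPM. Dendritic cell markers differed between the same populations. Their sum was 0 to 716 CPM in ILC2P, with Irf8, Itgax and Cd209a at 0, against 161 to 6183 CPM in CLP and 1223 to 5117 CPM in a4b7 CLP, where Xcr1 was the 1 of 6 listed genes at 0. The CLP libraries with the highest Il21r, replicates 6 and 7, held 6183 and 5304 CPM of the list, against 161 to 984 CPM in batch 2 CLP. In a4b7 CLP replicates 1 to 5 the list was 1713, 2055, 1223, 3954 and 5117 CPM, which is not the order of the Il21r values given above. The part of these markers in the Il21r difference was not tested. Both calls were made within batch 1 (adjusted p = 0.0276 against CLP and 0.0461 against a4b7 CLP), and the gene did not pass the filter in batch 2 alone or in fits of the compared groups alone. CILP was low too, with 4 counts against 66 in a4b7 CLP (log2 fold change -4.12, adjusted p = 0.0503 in edgeR). That comparison was past the threshold in DESeq2 (-4.21, adjusted p = 0.0193), limma-voom (-2.74, adjusted p = 0.00971) and some other settings. CILP against CLP (-3.09, adjusted p = 0.108 in edgeR) was past it in limma-voom (-2.39, adjusted p = 0.0212).

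Il9r, the private chain of the receptor for IL-9, a cytokine that ILC2s make and respond to, had no count in CLP or a4b7 CLP. Of the CILP libraries, 1 had counts (20.7 CPM), and ILCP libraries had 4.88, 0 and 33.2 CPM. It ranged from 0 to 259 CPM in ILC2P (median 25.0), with counts in 5 of 8 libraries. ILC2P overlapped CLP and a4b7 CLP through its 3 libraries at 0. The filter admits a gene through 1 library with enough counts for its depth, and Il9r reached this only in ILC2P. Its entry to the test is therefore not independent of the calls that follow. With 3 counts put in the other group, Il9r was 26.1-fold higher in ILC2P than in CLP and 25.4-fold higher than in a4b7 CLP. The 95% exact binomial intervals of these ratios reached down to 20.15 and 19.66. Both comparisons were called in edgeR (adjusted p = 0.00302 and 0.014). ILC2P replicate 2 held 21 of the 37 counts, and without it both calls were lost (log2 fold change 4.35, adjusted p = 0.0546 against CLP, and 4.39, adjusted p = 0.0988 against a4b7 CLP). In batch 1 alone the adjusted p was 0.207 and 0.278, and the gene was not tested in batch 2 alone. ILC2P against CILP was not called (log2 fold change 4.40, adjusted p = 0.0558 in edgeR). It was past the threshold in limma-voom (2.74, adjusted p = 0.0024), with the outlier library put back (adjusted p = 0.0428) and without CILP replicate 6 (adjusted p = 0.0338). The 3 GATA matches in the Il9r window are a description of its letters, and binding was not measured.

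Between TCF7-/- and WT libraries, Il2rb in ILC2P was the only member called. Whether its difference in ILC2P was unlike that in CLP or CILP was not tested. It was 248 and 283 CPM in the 2 TCF7-/- ILC2P libraries (31 and 59 counts), against 0 in 7 and 68.2 CPM in 1 of the 8 WT ILC2P libraries (2 counts). Both TCF7-/- libraries lay above all WT libraries. Il2rb rose in TCF7-/- ILC2P (log2 fold change 5.69, SE 1.44, adjusted p = 0.0124), 1 of 7 members where 2.57% of all genes were called, 279 of 282 higher. The ratio of summed counts was 72.1 (95% exact binomial interval 19.4 to 605). The TCF7-/- libraries were deeper, with totals of 252100 and 248697 counts, against a median of 66812.5 in WT ILC2P. Both were in batch 2; within that batch the log2 fold change was 4.70 (adjusted p = 0.165), without TCF7-/- ILC2P replicate 1 it was 5.79 (adjusted p = 0.0514), and in a fit of these 2 groups alone Il2rb did not pass the filter. Markers of other cells moved with it and differed between the 2 libraries. Replicate 1 held 16096 CPM of erythroid, 14746 CPM of myeloid and 5664 CPM of B lineage markers, against highest WT ILC2P values of 614, 2762 and 1371 CPM. Replicate 2 held 7883 CPM of mature T markers, against 0 to 71.0 CPM in WT ILC2P; 6 of 7 listed T genes had counts in TCF7-/- ILC2P, with Foxp3 at 0, and 4 of 7 in WT ILC2P, with Cd3e, Cd3d and Cd8a at 0. The NK and group 1 ILC list was 0 and 345 CPM in replicates 1 and 2, against 0 to 188 CPM in WT ILC2P, and Eomes, Tbx21 and Prf1 were at 0 in both TCF7-/- libraries. The part of these cells in the Il2rb difference was not tested.

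The other members gave no call in TCF7-/- ILC2P. Il2ra was 368 and 676 CPM in TCF7-/- ILC2P, inside the WT range of 136 to 821 CPM. Il7r was 583 and 3398 CPM, against 205 to 2580 CPM in WT ILC2P. Il2rg was 328 and 1011 CPM, against 0 to 966 CPM in WT ILC2P. Il21r had no count in either genotype, and Il9r was 87.9 and 0 CPM in TCF7-/- ILC2P.

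In CLP and CILP, no member was called between TCF7-/- and WT (CLP, 0% and 0 of all genes, 712 at an unadjusted p under 0.05; CILP, 0.501%, 55 of all genes, 1218 at an unadjusted p under 0.05), and DESeq2 and limma-voom called 0 members too, with 1 and 8 genes of all in CLP. In CILP, Il7r was 59.2, 1987, 1828 and 264 CPM in TCF7-/- libraries, against 909 to 3122 CPM in WT libraries (log2 fold change -0.44, SE 0.53, adjusted p = 0.822). Replicates 2 and 3 lay inside the WT range and replicates 1 and 4 below it. Replicates 1 and 4 also held the erythroid sums of 10840 and 28850 CPM and CILP marker sums of 612 and 650 CPM, against 1903 and 3328 CPM in replicates 2 and 3 and 2924 to 5576 CPM in WT CILP. Il2rb was 0, 391, 302 and 35.2 CPM in TCF7-/- CILP, against 0 to 202 CPM in WT CILP, so it was high in the same replicates 2 and 3. The groups overlapped in both genes. In CLP, Il7r was 1726, 811, 813, 937 and 819 CPM in TCF7-/- libraries, against 371 to 1242 CPM in WT libraries (log2 fold change 0.43, SE 0.47, adjusted p = 0.98). The effect of TCF7-/- in CILP was not different from its effect in CLP for any member (0.0456% of all genes called, 5 genes, 995 at an unadjusted p under 0.05); the smallest adjusted p was that of Il2ra, 0.272, and DESeq2 and limma-voom called 0 members.

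**Figure D3:**
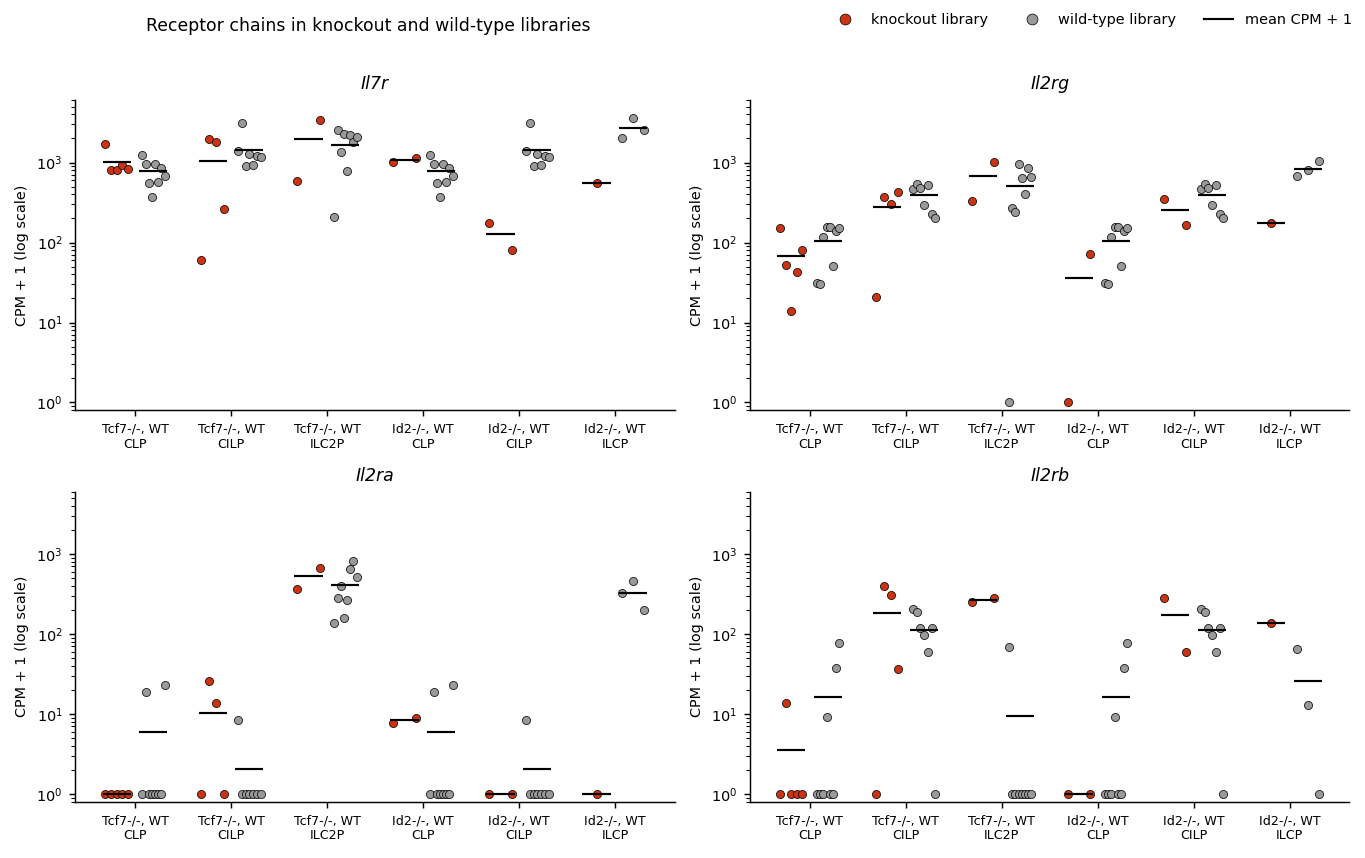
Each panel plots one receptor gene as CPM + 1 on a log axis, with knockout libraries in red to the left of the wild-type libraries of the same population in grey; lines are means plus 1. In Id2-/- CILP, Il7r sits at 80.3 and 175 CPM under all WT CILP libraries, and in TCF7-/- ILC2P, Il2rb sits at 248 and 283 CPM above all WT ILC2P libraries.

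In the Id2-/- libraries, Il7r in CILP stood out, on the edge of the threshold. It was 175 and 80.3 CPM in the 2 Id2-/- CILP libraries (29 and 18 counts), against 909 to 3122 CPM in the 7 WT CILP libraries (65 to 1652 counts). Both lay below all WT libraries. The log2 fold change was -3.39 (SE 0.85, adjusted p = 0.0797), so it was not called; 0 of 7 members were, where 0.0911% of all genes were called (10 genes, 687 at an unadjusted p under 0.05). The ratio of summed counts was 0.0616 (95% exact binomial interval 0.0452 to 0.0822). It was past the threshold in DESeq2 (-3.40, adjusted p = 0.000596), limma-voom (-3.59, adjusted p = 0.00162), with DESeq2 size factors in edgeR (adjusted p = 0.0323), with no filter on low counts (adjusted p = 0.0152), in batch 1 alone, where all Id2-/- libraries are (-3.17, adjusted p = 2.12e-06), and in a fit of these 2 groups alone (adjusted p = 0.00423). Il7r was 1014 and 1138 CPM in Id2-/- CLP, against 371 to 1242 CPM in WT CLP, inside the WT range. The difference between the effect in CILP and that in CLP was -3.97 (SE 1.00, adjusted p = 0.269; 0.0365% of all genes, 4 genes called, 528 at an unadjusted p under 0.05), and DESeq2 and limma-voom called it (adjusted p = 0.0103 and 0.00239).

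Il2rg and Il2rb did not follow Il7r in Id2-/- CILP. Il2rg was 349 and 165 CPM in Id2-/- CILP, against 199 to 542 CPM in WT CILP, and Il2rb was 283 and 58.0 CPM, against 0 to 202 CPM. Both overlapped WT (adjusted p = 1 for each). The same 2 libraries held CILP marker sums of 349 and 294 CPM, against 2924 to 5576 CPM in WT CILP. They held mast cell and basophil sums of 6531 and 3777 CPM, against 36.2 to 4420 CPM in WT CILP, with all 6 listed genes counted in Id2-/- CILP and 5 of 6 in WT (Ms4a2 at 0). Erythroid sums were 1693 and 1342 CPM, against 0 to 741 CPM in WT CILP. Their part in the level of Il7r was not tested.

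The single Id2-/- ILCP library had 551 CPM of Il7r, 175 CPM of Il2rg and no Il2ra count, against 2048 to 3557, 668 to 1030 and 199 to 458 CPM in the 3 WT ILCP libraries. All 3 lay below the WT range. How many of all genes lay outside the range of these 3 libraries was not counted, so these positions only describe levels. Il2rb (138 CPM, against 0 to 63.4 CPM) and Il21r (36.7 CPM from 4 counts, against 0 to 9.75 CPM) lay above their WT ranges. None was called, with 0% of all genes called (518 at an unadjusted p under 0.05; DESeq2 called 5 and limma-voom 167). With 3 counts put in the Id2-/- ILCP library, Il2ra was 11.4-fold lower there than in WT ILCP. The 95% exact binomial interval of the ratio, Id2-/- over WT, reached up to 0.1097. A single library is assumed here to vary like the other groups. The library held 11987 CPM of myeloid and 15973 CPM of erythroid markers and 422 CPM of the ILC2P list, against 49.9 to 121, 0 to 15349 and 5676 to 8383 CPM in WT ILCP, and their part in these levels was not tested. In CLP no member was called in Id2-/- libraries (0.0365% of all genes, 4 called, 347 at an unadjusted p under 0.05), and DESeq2 and limma-voom called 0 members.

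Il2ra and Il2rb, which join with Il2rg in the high affinity IL-2 receptor, were rarely counted together. Taking more than 3 counts as present, both TCF7-/- ILC2P libraries and 1 of 4 TCF7-/- CILP libraries held both, and no Id2-/- library did. In WT, Il2ra alone was present in all 8 ILC2P libraries and Il2rb alone in 6 of 7 CILP libraries. Of WT ILCP libraries, 1 of 3 held both, the one with 15349 CPM of erythroid and 902 CPM of NK and group 1 ILC markers. Il2rb alone was present in both Id2-/- CILP libraries and in the Id2-/- ILCP library. Over the 31 WT libraries the correlation of the 2 genes on log2(CPM + 1) was -0.346; these libraries share batches and differ in depth, and presence in a pool of 100 cells does not show presence in the same cell.

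**Figure D4:**
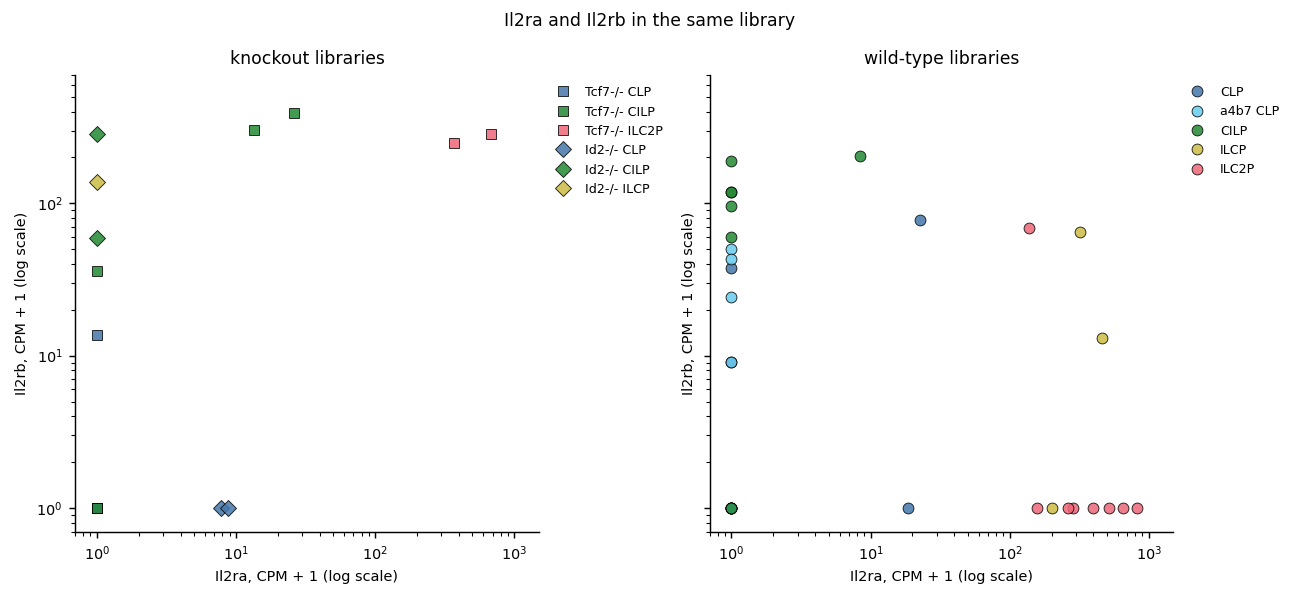
Il2rb is plotted against Il2ra, both as CPM + 1 on log axes, with 1 point per library; TCF7-/- (squares) and Id2-/- (diamonds) libraries are on the left and wild-type libraries (circles) on the right, coloured by population, and points at equal values cover each other. WT ILC2P lie along the Il2ra axis and WT CILP along the Il2rb axis, and both TCF7-/- ILC2P libraries sit high on both.

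The genes whose level across the 31 WT libraries was most like each member were ranked by Pearson correlation of log2(CPM + 1) among 10090 genes. Il7r and Il2rg were each other's nearest (r = 0.785), followed for Il7r by Nr3c1 (0.77), the glucocorticoid receptor, and Skap1 (0.753), and for Il2rg by Esyt1 (0.779) and Lpar6 (0.76). Il2ra was nearest to Il1rl1 (0.919), the IL-33 receptor chain of ILC2s, Rnf128 (0.919) and Cysltr1 (0.873), a leukotriene receptor. Il2rb was nearest to Gucd1 (0.751), Itga2b (0.736) and Cd160 (0.698), and Il21r to Irf8 (0.84), Mpeg1 (0.814) and Poc1a (0.794). Il9r was nearest to Vipr2 (0.844), Txnip (0.808) and Tcf7l1 (0.78), and Il4ra to Rbm14 (0.773), Ift46 (0.75) and Wdfy4 (0.741). Among members, Il2ra and Il9r had r = 0.619 and Il4ra and Il21r r = 0.527, while Il2ra and Il21r had r = -0.569. These values describe libraries that share populations, batches and depth.

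Genes that act downstream of these receptors were followed as a list of 10 feedback inhibitors and targets, 9 of them tested. Of all genes, 11.5% were called in ILC2P against CLP, 9.07% in ILC2P against a4b7 CLP and 5.29% in ILC2P against CILP. They were 4.31% in CILP against CLP, 2.35% in CILP against a4b7 CLP and 1.51% in ILCP against a4b7 CLP. The share was 0.374% in ILCP against CILP and 0.501% in TCF7-/- against WT CILP. These shares apply to this and the following lists, where 1 call among so few genes is no result about the list. In ILC2P against CILP, 2 of the 9 rose and 1 fell, with a median log2 fold change of 1.42 over the list and -0.56 over all genes. Cish, a STAT5 target and feedback inhibitor, was 204 ± 109 CPM in ILC2P (SD, n = 8) and 15.6 ± 26.7 CPM in CILP (SD, n = 7; log2 fold change 3.79, adjusted p = 0.0156). Socs2, another such inhibitor, was 94.8 ± 177 CPM in ILC2P and 0.54 ± 1.43 CPM in CILP (5.92, adjusted p = 0.00789). Bcl2, the survival factor, was 204 ± 140 CPM in ILC2P and 1932 ± 496 CPM in CILP (-3.20, adjusted p = 8e-07), and it fell in ILCP against CILP too (-3.23, adjusted p = 0.0098). In CILP against CLP, Bcl2 (3.03, adjusted p = 2.02e-06; 236 ± 192 CPM in CLP, n = 8) and Socs1 (5.54, adjusted p = 9.67e-05) rose, 2 of 9, with a list median of 0.11 against 0.07 over all genes. In ILC2P against CLP, Socs1 (4.68), Cish (3.24) and Bcl2l1 (4.27) rose, 3 of 9, with a list median of 1.53 against -0.43. Against a4b7 CLP, ILC2P had 3 higher (Socs1, Socs2 and Cish) and 1 lower (Bcl2, -1.65, adjusted p = 0.0203), ILCP had Cish higher (7.10, adjusted p = 0.00195) and CILP had Socs1 higher (5.51, adjusted p = 0.00292). In TCF7-/- CILP against WT CILP, Socs2 rose (6.79, adjusted p = 0.0287), 1 of 9, and in the other knockout comparisons none was called.

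Of 8 JAK and STAT genes, 7 were tested and Jak1 was the one called: it rose in CILP against CLP (log2 fold change 1.56, adjusted p = 0.0293) and against a4b7 CLP (1.83, adjusted p = 0.0472), with 1031 ± 726 CPM in CILP (SD, n = 7), 348 ± 205 CPM in CLP (SD, n = 8) and 282 ± 115 CPM in a4b7 CLP (SD, n = 5). The list medians were -0.54 and 0.81 in these comparisons, against 0.07 and 0.01 over all genes. Of 7 ligands, 2 were tested (Il4 and Il15), and Il4 rose in ILC2P against CLP (adjusted p = 0.0144) and against a4b7 CLP (adjusted p = 0.0399), with 26.5 ± 40.7 CPM in ILC2P (SD, n = 8), counts in 4 of 8 libraries, and no count in CLP or a4b7 CLP. Il7 had no count in any WT population. Of 8 chains that pair with members or belong to neighbouring receptor families, 6 were tested. In ILC2P against CLP, 3 of 6 fell (list median -3.92, against -0.43 over all genes): Csf2rb, the shared chain of the IL-3 and GM-CSF receptors (adjusted p = 0.00311), Il3ra (adjusted p = 0.0231) and Lifr (adjusted p = 0.0102), all without a count in ILC2P. Csf2rb and Lifr also fell against a4b7 CLP (adjusted p = 0.00286 and 0.0101), and Il6ra fell in CILP against a4b7 CLP (-4.77, adjusted p = 0.0452). Crlf2, which pairs with the Il7r product to bind TSLP, fell in ILC2P against CILP: 7.98 ± 11.4 CPM in ILC2P (SD, n = 8) and 131 ± 67.4 CPM in CILP (SD, n = 7; -3.78, adjusted p = 0.0163). Il7r itself was 1661 ± 819 CPM in ILC2P and 1436 ± 764 CPM in CILP and was not called between them (adjusted p = 0.832).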

How the data were processed

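Pools of 100 sorted bone marrow cells were sequenced by CEL-seq, per the labels' protocols. The deposited tables hold raw counts of reads for each Entrez gene, and each of the 2 batches has its own table. According to the submitters' processing notes, CASAVA 1.8.2, featureCounts, limma, edgeR (3.8.2 and 3.22.0) and the mouse build mm10 were used. The aligner and the strand setting are not given in the sources used here. Molecular identifiers are not mentioned either, and PCR copies may be counted. Every interval, and every fold set against 3 counts, therefore covers counting error at most.

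Groups are the labelled genotype and cell type together. Of 70 samples, 4 were technical repeats, whose counts were summed with those of the library they repeat. The model holds 47 libraries; it omits 12 control wells, 6 libraries labelled Nfil and 1 WT CILP library marked as an outlier in the labels. Symbols came from RefSeq (25275 of 27179 identifiers matched). Replicates were numbered in accession order.

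Counts were tested with edgeR 4.0.16 in R 4.3.3: filterByExpr (at least 10 counts, 15 in total), TMM scaling (factors 0.497 to 1.518), and a robust quasi-likelihood fit of group means plus batch (35 residual degrees of freedom). The filter was set by group, and the smallest group was 1 library, so a gene could enter through 1 library with enough counts for its depth. The filter left 10972 genes, and the biological coefficient of variation was 109.7%. Adjusted p is Benjamini-Hochberg over all genes. Groups of 1 or 2 libraries are assumed to vary like the others. Where a group had no count of a gene, the fold was computed with 3 counts put in the whole group. It takes the counts of the other group without error, so it is not a strict minimum. Il15ra, outside the filter, was compared by exact permutation tests of log2(CPM + 1) in scipy 1.17.1. The settings varied were the tool (DESeq2 1.42.0, or limma-voom 3.58.1 with quality weights), the scaling (size factors of DESeq2), the filter and the batch term (each dropped), the libraries fitted (1 batch, the compared groups, the outlier put back, shallow libraries or technical repeats removed), and every library, omitted one after the other. The leave-one-out fits kept the dispersion trend of the full fit and estimated the rest again. The fit was also run on counts simulated from its own means and dispersions, for WT CILP against CLP only. That run does not bear on the groups of 1 or 2 libraries.

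The 8 members, the pathway lists, the markers and the tests were chosen with earlier results of these data known. The genes named are all members, the 3 nearest genes of each tested member, and the called genes of 4 pathway lists.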

Additional observations from a re-analysis of the deposited data

Results flagged for a closer look

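Of 41 groups of 4 to 10 libraries tested for a library far from the others, 15 held one for a receptor gene; chance flags about 1 in 20 groups, and several of these groups were 0 in nearly all libraries. Il7r was 1726 CPM in TCF7-/- CLP replicate 1 and 3122 CPM in WT CILP replicate 2, the deepest library (1652 Il7r counts). Il9r was 259 CPM in WT ILC2P replicate 2 and 20.7 CPM in WT CILP replicate 6. Il21r was 123 CPM in TCF7-/- CILP replicate 4, one of the libraries with high erythroid sums. Il4ra was 172 CPM in WT ILC2P replicate 7 and 204 CPM in WT CILP replicate 3.

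Most of the others rest on 1 to 5 counts. Il2rb was 12.7 CPM in TCF7-/- CLP replicate 2 (1 count) and 68.2 CPM in WT ILC2P replicate 1 (2 counts). Il2ra was 7.34 CPM in WT CILP replicate 1 (2 counts). Il15ra was 63.3 CPM in TCF7-/- CLP replicate 2, 62.6 CPM in TCF7-/- CILP replicate 2 (20 counts), 49.0 CPM in WT a4b7 CLP replicate 2 (19 counts), 20.7 CPM in WT CILP replicate 6 and 35.3 CPM in WT ILC2P replicate 6.

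Libraries outside the comparisons also held receptor counts above the 3 counts that a count of 0 allows, here as CPM of the library total. The libraries labelled Nfil, which the submitters mark as a knockout that did not succeed and left unused, had 373 and 1001 CPM of Il7r in CLP and 3444 and 4936 CPM in ILC2P. Their Il2rg was 122 CPM in 1 CLP library and 655 and 457 CPM in ILC2P. Il2ra was 1651 CPM in Nfil ILC2P replicate 1 (58 counts), and 143 CPM in replicate 2 (5 counts), against a highest WT ILC2P library of 982 CPM on the same scale. Nfil CILP replicate 1 had 103 CPM of Il2ra (5 counts), against at most 6.01 CPM in WT CILP, and 82.4 CPM of Il7r (4 counts); replicate 2 held 296 counts in all. In Nfil CLP, Il2rb was 38.9 CPM in replicate 2 and Il4ra and Il21r were 74.5 and 26.6 CPM in replicate 1. The WT CILP library that the submitters call an outlier had 786 CPM of Il7r and 170 CPM of Il2rg. Among control wells, the highest Il2ra count was 8, in a well of 6936 counts, and another well held 6 Il2ra counts of 388; Il7r reached 6 counts and Il2rg 5 in the first of these.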

How the results depend on the processing

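Of 21 pairs of member and comparison that were called, 14 were called without any 1 library and 8 under every alternative in which they were tested; 0 reversed, and 11 further pairs were past the threshold under some alternative. The count of members called in CILP against CLP (1) was 3 in limma-voom, 0 in batch 1 alone and 2 in fits of the compared groups alone. In CILP against a4b7 CLP (1) it was 3 in DESeq2, 4 in limma-voom, 0 in batch 2 alone, and 2 with DESeq2 size factors, in the compared groups alone, with the outlier library put back and without the 2 libraries under 20% of their batch's median total. In batch 2 alone it was 1 for ILCP against CLP (3) and against a4b7 CLP (3), 1 for ILC2P against CLP (4), 2 for ILC2P against a4b7 CLP (5), which was 3 in the compared groups alone, and 0 for TCF7-/- against WT ILC2P (1), which was 0 in the compared groups alone. In ILC2P against CILP (2) it was 1 with DESeq2 size factors, in either batch alone and in the compared groups alone. In Id2-/- against WT CILP (0) it was 1 in DESeq2, limma-voom, batch 1 alone, the compared groups alone, with DESeq2 size factors and with no filter; in Id2-/- against WT ILCP (0) it was 1 in limma-voom. The difference between the Id2-/- effects in CILP and CLP (0) gave 1 in DESeq2, limma-voom, batch 1 alone, the compared groups alone and with no filter. Fewer members passed the filter in batch 2 alone and in the compared groups alone, but members still tested in batch 2 lost calls too (Il2rg and Il7r in ILCP); the cause was not tested.

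Leaving out each library in turn gave 0 to 2 in CILP against CLP, 1 to 2 in CILP against a4b7 CLP, 2 to 3 in ILC2P against CILP, 3 to 5 in ILC2P against CLP, 4 to 6 in ILC2P against a4b7 CLP, 2 to 3 in ILCP against CLP and against a4b7 CLP, 1 to 1 in ILCP against CILP, 0 to 1 in TCF7-/- against WT ILC2P and 0 to 0 elsewhere. Over all genes, the alternatives called 162 to 1547 in ILC2P against CLP (1257), 165 to 2469 in ILC2P against a4b7 CLP (995), 91 to 719 in ILC2P against CILP (580), 105 to 721 in CILP against CLP (473), 31 to 833 in CILP against a4b7 CLP (258), 78 to 582 in ILCP against CLP (286), 23 to 662 in ILCP against a4b7 CLP (166), 8 to 173 in ILCP against CILP (41), 0 to 115 in ILC2P against ILCP (59), 0 to 33 in a4b7 CLP against CLP (5), 8 to 319, 0 to 96 and 0 to 18 in TCF7-/- ILC2P (282), CILP (55) and CLP (0), and 0 to 167, 2 to 530 and 0 to 25 in Id2-/- ILCP (0), CILP (10) and CLP (4), each against WT. The differences between the knockout effects in CILP and CLP gave 0 to 38 for TCF7-/- (5) and 1 to 199 for Id2-/- (4). Over all genes, the median log2 fold change in ILC2P against CILP was -0.56 with TMM and -0.23 with DESeq2 size factors; the Il2rb value in that comparison is to be read against this shift. No paired analysis was possible because replicate numbers were given in accession order only. Few counts limit Il15ra, Il9r and Il21r, and Id2-/- ILCP rests on 1 library.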
